A study of Mus musculus with 12 samples.

Results

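The levels of 34 maternally expressed imprinted genes were followed in female mouse primordial germ cells, which later become eggs, at stage E14.5. They were taken by name from 35976 gene rows, and 34 of 34 names were found. The genes lie in 13 imprinted domains. The libraries were 3 of HxD (genotype Tet1HxD/HxD, the catalytically dead form of Tet1), 3 of KO (the Tet1 knockout), 3 of V (the Tet1 form that stalls at 5-hydroxymethylcytosine, 5hmC) and 3 of WT (wild type). All 4 groups carried the Oct4-GFP reporter by which the cells were sorted, and each library was made from poly(A) RNA of 5000 cells. Since the labels do not state if replicates are different embryos, litters or repeats of 1 pool, the p-values speak only for the spread among these libraries, some of which may be technical.

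Imprinted genes are read mainly from 1 parental copy, some of them only in certain tissues. In the domains named next, a control region is methylated in either egg or sperm, and the mark decides which parental copy is silent. The H19/Igf2 and Dlk1/Meg3 control regions are methylated in sperm, and those of the Kcnq1, Igf2r, Grb10, Gnas, Snrpn, Peg3, Peg10, Mest and H13 domains are methylated in the egg. Primordial germ cells erase these marks before new ones are laid down, and in mouse TET1, which oxidizes 5-methylcytosine, is known to take part in that erasure. The counts hold no allele information, so each value is the summed level of both copies.

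Total counts per library ran from 18471158 to 29495313. The libraries differed in how many scarce genes they held. Scarce genes were taken as the 2936 that averaged 1 to 5 CPM, the count scaled to a common library size. Of these, HxD1 missed 43.7%, HxD2 4.94% and HxD3 1.77%. KO1 missed 27.1%, KO2 2.59% and KO3 45.7%, V1 missed 9.81%, V2 24.4% and V3 2.08%, and WT1, WT2 and WT3 missed 16.2%, 13.3% and 20.6%. The 13 germ cell markers were counted in all libraries. They summed to 3324 to 3827 CPM in HxD, 3563 to 3903 in KO, 3336 to 3960 in V and 3922 to 4377 in WT. The HxD and KO sums thus lay below all WT sums, and those of V overlapped WT. Of 20 gonadal somatic markers, 3 were counted in all libraries and 11 were at 0 in at least 6, and the list summed to between 152.0 and 292.7 CPM. Without Sparc and Irx3, a choice made after their values were seen, they summed to 5.92 to 25.3 CPM in HxD, 9.65 to 26.9 in KO, 13.3 to 54.7 in V and 17.6 to 47.9 in WT. Of these, Foxl2, Nr5a1 and Gata4, which define somatic cells of the ovary, were at 0 in 7, 5 and 7 of the 12 libraries, and Wnt4 was at 0 in none. Of 19 endothelial, blood and mesonephric markers, 2 were counted in all libraries and 14 were at 0 in at least 6. That list summed to 171.8 to 210.1 CPM in HxD, 198.2 to 299.03 in KO, 154.2 to 267.8 in V and 149.2 to 241.1 in WT, mostly from Pecam1. Without Pecam1 it summed to between 9.73 and 51.4 CPM in a library. Cdh5, Kdr and Ptprc of this list were at 0 in 9, 10 and 10 of the 12 libraries, and Egfl7 was at 0 in none. The embryonic globin gene Hbb-y was at 29.5 CPM in KO3 and at most 0.393 CPM in the other libraries. The other globin genes listed, Hbb-bt, Hbb-bs, Hba-a1 and Hba-a2, were highest in WT1, at 7.45, 12.8, 3.88 and 1.34 CPM. They were at 0 in WT2 and WT3. Tet1 itself was at 227.0, 221.7 and 285.8 CPM in HxD, 130.7, 158.3 and 80.8 in KO, 225.7, 197.0 and 192.0 in V, against 91.4, 180.1 and 215.0 in WT, and no difference from WT was called. A gene-level count cannot check a knockout that leaves part of the transcript in place.

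Of the 34 genes, 29 had enough counts to be tested and 20 of those averaged at least 5 CPM. At 0 in all 12 libraries were 3 genes, namely Slc22a2, an organic cation transporter, Calcr, the calcitonin receptor, and Tfpi2, a protease inhibitor. Th, the rate-limiting enzyme of catecholamine synthesis, was detected in KO2, V3 and WT1 with at most 28 counts. Dcn, the matrix proteoglycan decorin, was detected in HxD3 and V1 with at most 10 counts. These 5 genes were not tested. A gene at 0 was not detected at this depth, and its absence from the cells was not shown.

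In 1 fit of all 12 libraries over 16166 genes with edgeR's quasi-likelihood test, 1 of the 29 genes was called at an adjusted p under 0.05, Phlda2, which was higher in KO than in WT. In that comparison 197 genes were called, 1.22% of those tested, 0.724% higher and 0.495% lower, so a count of 1 does not set these genes apart. None of the 29 was called in HxD against WT, where 5 genes or 0.0309% of all tested were called (0.00619% higher and 0.0247% lower), and none in V against WT, where 25 genes or 0.155% were called (0.068% higher and 0.0866% lower). At an unadjusted p under 0.05 the numbers were 5 of 29 in HxD, 6 in KO and 4 in V, beside 7.25%, 13.2% and 9.69% of all tested genes. Mirg and Slc22a3, which passed the filter on low counts only through mutant libraries, are in each of these counts. limma-voom called 0, 1 and 0 of the 29 in HxD, KO and V, beside 0.0928%, 1.16% and 0.124% of all genes. DESeq2 called 0, 3 and 1, beside 0.396%, 3% and 0.94%, and Phlda2 was the 1 gene among its calls that did not enter through mutant libraries alone.

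The median log2 fold change of the 29 genes was -0.04 in HxD, -0.09 in KO and -0.0034 in V, beside -0.0071, -0.017 and 0 over all tested genes. Among the 20 genes of at least 5 CPM, the fold changes ran from -1.53 to 1.11 in HxD, from -0.80 to 0.94 in KO and from -0.90 to 1.07 in V, with 9 above 0 and 11 below in each. The 3 comparisons share the same WT libraries, so their directions are not independent of each other. Between pairs of mutants, edgeR called 0 genes in HxD against KO, V against KO and V against HxD (0% of 16166 each). At an unadjusted p under 0.05 the members numbered 4, 1 and 3 of 29 in these comparisons, beside 3.18%, 4.62% and 2.02% of all tested genes, and DESeq2 and limma-voom called 0 of them in each.

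**Figure D1:**
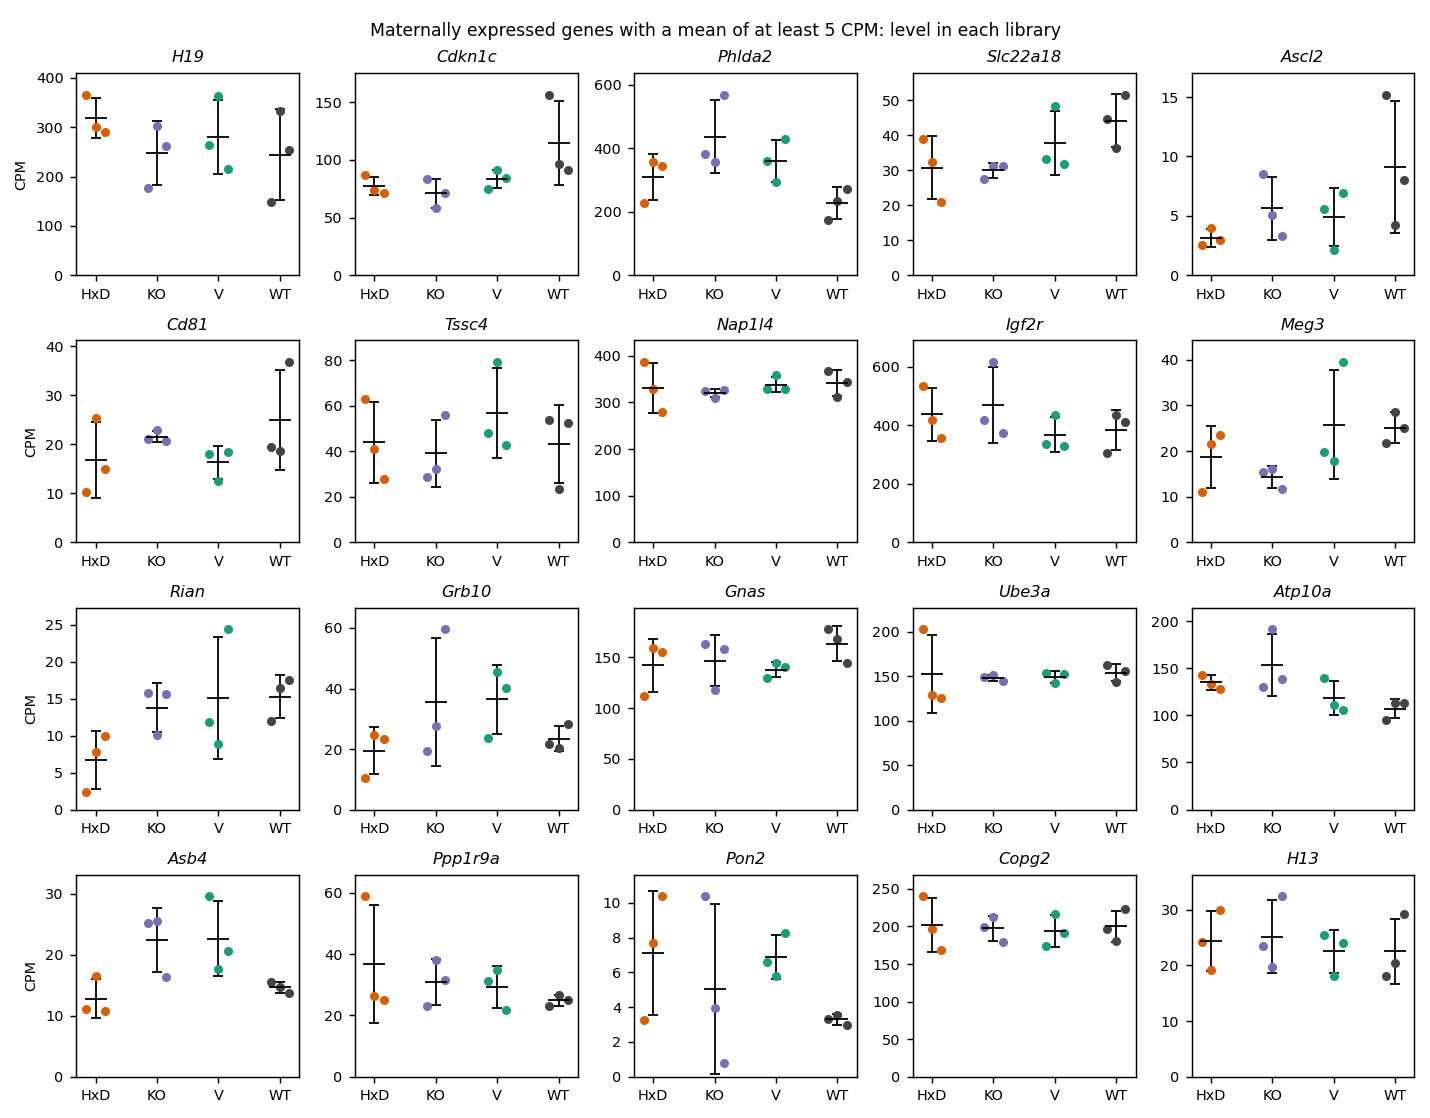
Level in each library, in CPM on a linear axis from 0, of the 20 maternally expressed genes that averaged at least 5 CPM. Points are libraries, the long bar is the group mean and the whiskers are ± SD (n = 3 per group). Phlda2 shows all 3 KO libraries above all 3 WT libraries, as did 8.17% of all tested genes. In other panels, such as Igf2r and Ube3a, every mutant group overlaps WT.

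The Kcnq1 domain, on distal mouse chromosome 7, holds 11 of the genes. Its control region is the promoter of the antisense RNA Kcnq1ot1, which is read from the paternal copy and silences its neighbours there. Phlda2 encodes a pleckstrin-homology protein that restrains growth of the placenta. Its levels were 227.4, 356.3 and 345.0 CPM in the HxD libraries, 382.1, 358.5 and 568.3 CPM in KO, 359.1, 294.4 and 428.1 CPM in V, against 173.2, 235.5 and 272.6 CPM in WT. All KO and all V libraries lay above all WT libraries, and HxD1 fell inside the WT range. Means were 309.6 ± 71.4 CPM in HxD, 436.3 ± 114.9 in KO, 360.6 ± 66.9 in V, against 227.1 ± 50.2 in WT (SD, n = 3 each). Phlda2 rose 1.92-fold in KO, a log2 fold change of 0.94 ± 0.21 (SE; 95% interval 0.51 to 1.38; edgeR adjusted p = 0.0227). The log2 fold change was 0.45 ± 0.21 in HxD (adjusted p = 0.685) and 0.67 ± 0.21 in V (adjusted p = 0.226), neither of which passed. HxD against KO differed by -0.49 ± 0.21 (adjusted p = 1.0) and V against KO by -0.28 ± 0.21 (adjusted p = 0.985), so the rise was not shown to be particular to KO.

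The Phlda2 call rested on single libraries. Without KO3, the library with the fewest genes, the log2 fold change was 0.71 (edgeR adjusted p = 0.148), without WT1 it was 0.78 (adjusted p = 0.151), and without WT2 it was 0.97 (adjusted p = 0.0755). With HxD1, KO1 and KO3 left out together it was 0.66 (adjusted p = 0.336), where the spread of the remaining KO library was borrowed from the other groups. It stayed above 0 in 20 of 20 alternatives. Germ cell markers differed between the same libraries. In KO edgeR called 1 of 13 higher (Tfap2c) and 3 lower (Dazl, Mael and Tdrd1), beside 0.724% and 0.495% of all tested genes. An unadjusted p under 0.05 was reached by 10 of the 13 markers, beside 13.2% of all tested genes. Dazl, a germ cell RNA-binding protein, averaged 753.2 ± 127.6 CPM in HxD, 719.2 ± 119.7 in KO and 685.7 ± 115.0 in V, against 1598.4 ± 363.0 in WT. Mael, a piRNA pathway protein, averaged 40.7 ± 5.71 CPM in HxD, 21.8 ± 4.01 in KO and 41.3 ± 21.0 in V, against 169.5 ± 36.5 in WT. Both were also called lower in HxD and in V, and Pou5f1 was called higher in V. The part of these differences, and of the globin reads in KO3 and WT1, in the Phlda2 change was not tested. Fewer cells of a type and less RNA per cell cannot be told apart in such bulk samples.

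**Figure D2:**
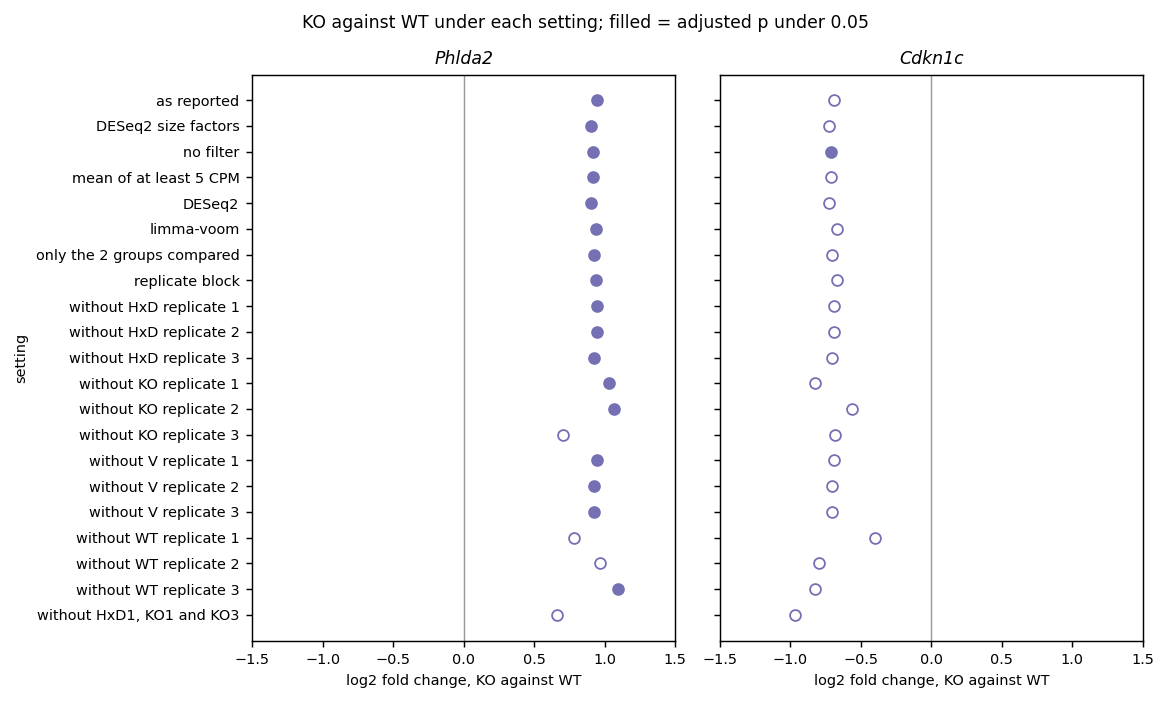
Log2 fold change of KO against WT for Phlda2 and Cdkn1c as reported and under each of 20 alternative settings. Filled points have an adjusted p under 0.05. Phlda2 stays above 0 throughout and loses its call in 4 settings, and Cdkn1c stays below 0 and gains a call in 1.

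Cdkn1c, a neighbour of Phlda2 that encodes the cell-cycle inhibitor p57, lay on the other side of WT. Its levels were 86.5, 73.4 and 71.7 CPM in HxD, 83.8, 58.5 and 70.8 in KO, 74.97, 90.9 and 84.0 in V, against 156.2, 96.1 and 90.9 in WT. All HxD and KO libraries were below all WT libraries, V2 reached the lowest WT library, and WT1 was far above the other WT libraries. Means were 77.2 ± 8.11 CPM in HxD, 71.0 ± 12.7 in KO, 83.3 ± 7.98 in V, against 114.4 ± 36.3 in WT. The log2 fold change was -0.57 ± 0.22 in HxD (adjusted p = 0.571), -0.69 ± 0.22 in KO (adjusted p = 0.125) and -0.46 ± 0.22 in V (adjusted p = 0.502), and none was called. Without WT1 the value was -0.28 in HxD, -0.40 in KO (adjusted p = 0.616) and -0.17 in V. With no filter on low counts the KO value was -0.71 and passed (edgeR adjusted p = 0.0467). In the GENCODE M21 annotation 30.3% of the Cdkn1c exon length is covered by Gm44732 on the opposite strand, and the counts may or may not separate the strands.

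Promoter sequences are shown for Phlda2, the gene that was called, and for Meg3, Grb10 and Igf2r, which lie in 3 other domains. Of Igf2r, Meg3, Grb10 and Gnas, picked as well-known genes with a promoter sequence, these had the largest absolute log2 fold changes from WT. Each runs 5′ to 3′ on the gene's own strand from 250 bases before to 50 bases after its most upstream start, from RefSeq on GRCm38.p6. Capitals mark CpG dinucleotides, the sites that DNA methylation and TET1 act on. The Phlda2 window is chr7:143502475-143502774 on the minus strand, that of Meg3 chr12:109540746-109541045 on the plus strand, that of Grb10 chr11:12037371-12037670 on the minus strand and that of Igf2r chr17:12769657-12769956 on the minus strand.
Phlda2: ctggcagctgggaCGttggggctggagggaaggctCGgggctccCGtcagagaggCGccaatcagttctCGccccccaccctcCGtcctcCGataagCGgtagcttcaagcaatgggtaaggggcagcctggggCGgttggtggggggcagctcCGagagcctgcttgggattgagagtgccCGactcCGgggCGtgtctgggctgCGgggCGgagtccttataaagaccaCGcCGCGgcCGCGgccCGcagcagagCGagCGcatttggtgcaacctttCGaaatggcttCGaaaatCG
Meg3: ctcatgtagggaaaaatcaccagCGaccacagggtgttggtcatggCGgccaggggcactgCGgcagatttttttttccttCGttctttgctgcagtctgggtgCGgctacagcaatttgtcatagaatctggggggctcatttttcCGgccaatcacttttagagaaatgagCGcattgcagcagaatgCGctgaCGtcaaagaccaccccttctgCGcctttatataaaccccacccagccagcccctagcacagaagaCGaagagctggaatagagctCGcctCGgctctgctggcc
Grb10: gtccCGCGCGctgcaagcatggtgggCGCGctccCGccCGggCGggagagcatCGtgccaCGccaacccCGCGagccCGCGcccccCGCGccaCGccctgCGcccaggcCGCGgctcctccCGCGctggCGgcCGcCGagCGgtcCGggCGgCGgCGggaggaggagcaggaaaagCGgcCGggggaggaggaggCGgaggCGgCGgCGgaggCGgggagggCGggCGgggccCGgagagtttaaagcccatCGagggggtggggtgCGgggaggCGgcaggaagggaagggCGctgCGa
Igf2r: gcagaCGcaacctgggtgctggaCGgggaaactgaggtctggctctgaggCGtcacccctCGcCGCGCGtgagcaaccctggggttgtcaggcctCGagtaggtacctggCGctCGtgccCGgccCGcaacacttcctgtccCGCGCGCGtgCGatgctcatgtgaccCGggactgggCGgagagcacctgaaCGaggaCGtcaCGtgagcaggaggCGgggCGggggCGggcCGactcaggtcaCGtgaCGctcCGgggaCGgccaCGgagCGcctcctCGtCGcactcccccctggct
Phlda2 had 26 CpGs in its window, Meg3 13, Grb10 45 and Igf2r 34. As many or more were present in 16.8%, 38.5%, 1.85% and 7.49% of the 27025 promoter windows in the table. The 28 genes of the group with a window had a median of 16 CpGs and a range from 0 in Rian to 45 in Grb10, and the median over all windows was 7. The letters TGCCGC, the methylated motif that ZFP57 binds, were searched on both strands. They occurred in 6 of the 28 windows, Meg3 and Grb10 among them, beside 11.6% of all windows. The motif holds a CpG and the windows of the group hold more CpGs, so these shares are not like for like. The windows were placed at gene starts and were not chosen to cover the control regions of the domains. No window was matched for Kcnq1, H19, Cdkn1c, Dcn, Klf14 or Nap1l4.

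The remaining Kcnq1-domain genes gave no calls. Slc22a18, a putative organic cation transporter, was at 39.0, 32.3 and 21.0 CPM in HxD, 27.4, 31.1 and 31.3 in KO, 33.2, 48.3 and 31.9 in V, against 44.6, 36.4 and 51.5 in WT. Its KO libraries lay below its WT libraries, with a log2 fold change of -0.56 ± 0.29 (adjusted p = 0.398). Ascl2, a transcription factor of the trophoblast, was scarce, at 2.54, 4.0 and 2.95 CPM in HxD, 8.54, 5.05 and 3.30 in KO, 5.56, 2.16 and 6.94 in V, against 15.2, 4.22 and 8.01 in WT. All HxD libraries were below all WT libraries. Its log2 fold change of -1.53 ± 0.89 in HxD was the largest below 0 among the genes of at least 5 CPM, with a 95% interval of -3.36 to 0.29 that includes 0 (adjusted p = 0.75). In KO the Ascl2 value was -0.70 ± 0.87 (adjusted p = 0.799) and in V -0.90 ± 0.88 (adjusted p = 0.86), and both sets of libraries overlapped WT. Without WT1 the Ascl2 values were -0.95 in HxD, -0.12 in KO and -0.32 in V.

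Cd81, a tetraspanin of the cell surface, was at 10.2, 25.4 and 14.9 CPM in HxD, 21.1, 22.9 and 20.7 in KO, 18.0, 12.5 and 18.5 in V, against 19.5, 18.7 and 36.8 in WT. The V libraries were all below WT, at a log2 fold change of -0.61 ± 0.40 (adjusted p = 0.662). Tssc4, known in human as a factor in spliceosome assembly, was at 63.0, 40.9 and 27.9 CPM in HxD, 28.8, 32.4 and 56.0 in KO, 48.2, 79.2 and 42.9 in V, against 53.9, 23.6 and 52.3 in WT, and the groups overlapped. Nap1l4, a histone chaperone, was the steadiest of the domain. Its levels were 386.3, 327.8 and 279.2 CPM in HxD, 324.5, 309.0 and 325.8 in KO, 328.2, 357.6 and 328.4 in V, against 367.1, 311.9 and 344.4 in WT, and its log2 fold changes were -0.04 ± 0.16 in HxD, -0.09 ± 0.16 in KO and -0.01 ± 0.16 in V.

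Kcnq1 itself, a potassium channel, was near the limit of detection, at 0.670, 0 and 0.373 CPM in HxD, 0, 0 and 0 in KO, 0.562, 0 and 0.638 in V, against 0, 2.16 and 0 in WT. Osbpl5, a lipid-transfer protein, was at 7.19, 2.0 and 2.01 CPM in HxD, 0, 0.497 and 0 in KO, 1.29, 2.72 and 3.36 in V, against 8.49, 4.92 and 0 in WT. Tnfrsf23, a decoy receptor of the TNF family, was seen in HxD2, V2 and WT2 at 0, 1.25 and 0 CPM in HxD, 0, 0 and 0 in KO, 0, 1.03 and 0 in V, against 0, 1.31 and 0 in WT. In KO against WT the adjusted p was 0.411 for Kcnq1, 0.289 for Osbpl5 and 0.471 for Tnfrsf23. KO1, KO3 and HxD1 had the largest shares of scarce genes at 0, and KO2 had 2.59% at 0. In HxD1 Kcnq1 and Osbpl5 were counted and Tnfrsf23 was not, and in KO2 only Osbpl5 was counted. The part of these shares in the values was not tested.

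**Figure D3:**
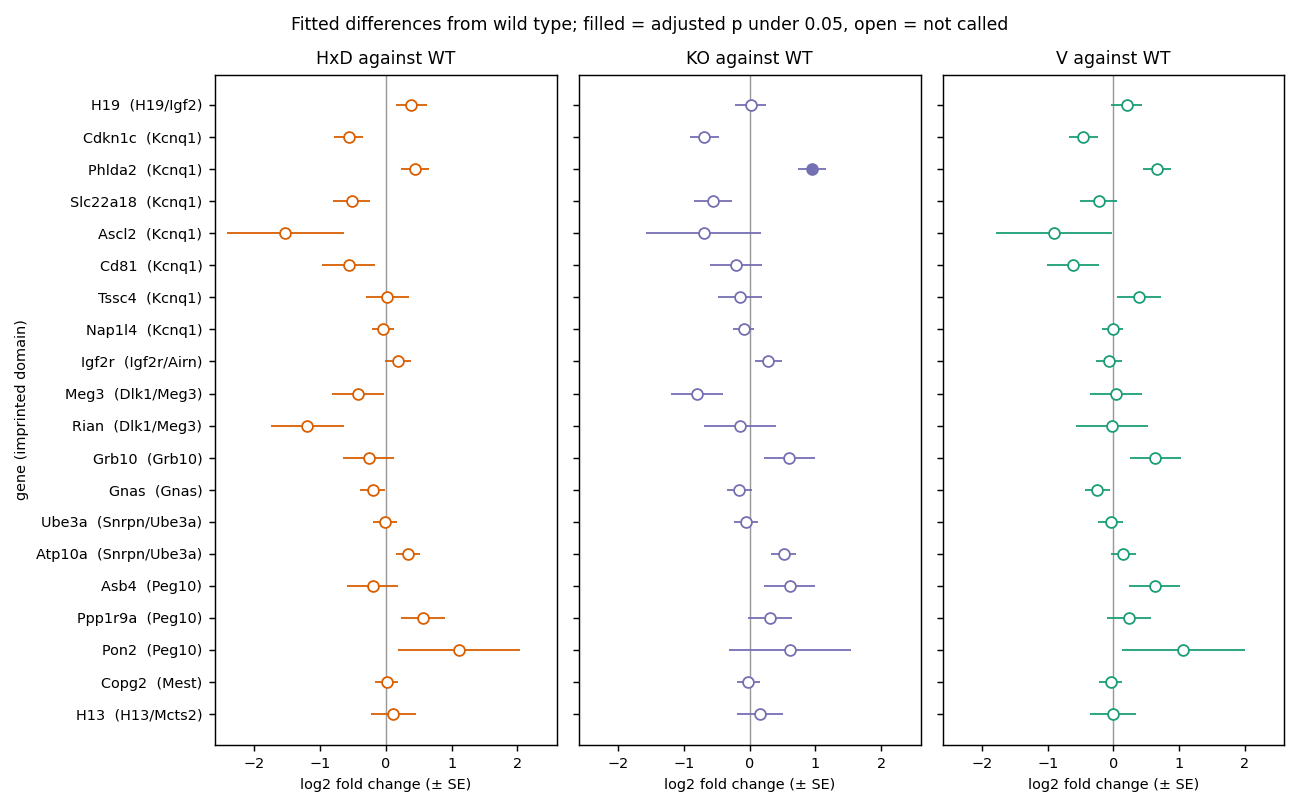
Log2 fold change ± SE against WT of the 20 genes of at least 5 CPM, by imprinted domain, in HxD, KO and V. The filled point, Phlda2 in KO, is the 1 value with an adjusted p under 0.05, and open points were not called.

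In the H19/Igf2 domain, H19 is a long noncoding RNA that shares enhancers with the growth factor gene Igf2. H19 was at 365.5, 301.4 and 289.3 CPM in HxD, 176.2, 302.7 and 262.3 in KO, 264.0, 363.0 and 215.1 in V, against 147.8, 332.0 and 253.2 in WT. Of the 9 mutant libraries, 2 lay above the highest WT library and none below the lowest. Means were 318.7 ± 40.9 CPM in HxD, 247.1 ± 64.6 in KO, 280.7 ± 75.3 in V, against 244.3 ± 92.4 in WT, and the log2 fold changes of 0.38 ± 0.24, 0.02 ± 0.24 and 0.20 ± 0.24 did not pass (adjusted p = 0.774, 0.989 and 0.912 in HxD, KO and V). For KO the 95% interval ran from -0.47 to 0.50. Without WT1 the H19 value was -0.24 in KO and -0.06 in V. The paternally expressed partner Igf2 was at 52.5, 96.6 and 107.6 CPM in HxD, 81.1, 59.8 and 64.2 in KO, 49.9, 65.7 and 68.6 in V, against 93.9, 102.5 and 81.9 in WT. Its KO and V libraries lay below WT, with log2 fold changes of -0.44 ± 0.24 and -0.59 ± 0.24 (adjusted p = 0.422 and 0.393).

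In the Igf2r/Airn domain, Igf2r encodes the receptor that clears IGF2 and carries mannose 6-phosphate proteins to lysosomes. It was among the most abundant of the group, at 536.0, 419.3 and 358.6 CPM in HxD, 417.0, 616.7 and 373.1 in KO, 337.7, 437.0 and 329.3 in V, against 307.4, 436.0 and 410.9 in WT. All groups overlapped. Means were 438.0 ± 90.2 CPM in HxD, 468.9 ± 129.9 in KO, 368.0 ± 59.9 in V, against 384.8 ± 68.2 in WT, with log2 fold changes of 0.19 ± 0.20 in HxD (adjusted p = 0.984), 0.29 ± 0.20 in KO (adjusted p = 0.561) and -0.06 ± 0.20 in V (adjusted p = 0.98). Airn, the paternal antisense RNA of the domain, had counts in 1 of 12 libraries and was not tested.

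Slc22a3, an organic cation transporter of the same domain, was at 0 in all 3 WT libraries. Its levels were 0, 0.917 and 0.858 CPM in HxD, 0, 0.911 and 6.25 in KO and 0.562, 2.96 and 1.03 in V, so 7 of 9 mutant libraries had counts, with 142 counts in KO3 and at most 89 in the others. Against a floor of 3 counts in each WT library, its mean was at least 4.89-fold higher in HxD, 19.7-fold in KO and 12.5-fold in V. The KO bound was 3.76-fold without KO3 and 29.6-fold without KO1, and the V bound was 6.56-fold without V2. Floors cover counting error and not the loss of rare molecules before sequencing. edgeR did not call it (adjusted p = 0.641 in HxD, 0.209 in KO and 0.371 in V). It passed the filter only through the mutant libraries where it was counted, so these values are a description.

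In the Dlk1/Meg3 domain, Meg3, Rian and Mirg are noncoding RNAs read one after another from the maternal copy, and Rian and Mirg host small nucleolar RNAs and microRNAs. Meg3 was at 10.96, 21.6 and 23.5 CPM in HxD, 15.4, 16.1 and 11.7 in KO, 19.9, 17.9 and 39.5 in V, against 21.7, 28.5 and 25.1 in WT. All KO libraries lay below all WT libraries and below all V libraries, while HxD and V overlapped WT. Means were 18.7 ± 6.74 CPM in HxD, 14.4 ± 2.38 in KO, 25.7 ± 11.9 in V, against 25.1 ± 3.42 in WT. The log2 fold change was -0.43 ± 0.39 in HxD (adjusted p = 0.955), -0.80 ± 0.39 in KO (adjusted p = 0.379) and 0.04 ± 0.39 in V (adjusted p = 0.995). V against KO differed by 0.84 ± 0.39 (adjusted p = 0.945), which did not pass.

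Rian was at 2.33, 7.79 and 9.89 CPM in HxD, 15.8, 10.02 and 15.6 in KO, 11.8, 8.87 and 24.4 in V, against 11.9, 16.4 and 17.5 in WT. Here it was HxD whose libraries lay below all WT and all KO libraries, with HxD1 the lowest. Means were 6.67 ± 3.90 CPM in HxD, 13.8 ± 3.26 in KO, 15.01 ± 8.24 in V, against 15.3 ± 2.96 in WT, and the log2 fold change was -1.20 ± 0.56 in HxD (adjusted p = 0.685), -0.15 ± 0.55 in KO (adjusted p = 0.948) and -0.02 ± 0.55 in V (adjusted p = 0.998). Although Meg3 and Rian are neighbours on the same strand, the group that lay below WT differed between them, and neither difference was called. Without V3 the V value was -0.41 for Meg3 and -0.56 for Rian.

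Mirg was at 0, 0.667 and 1.42 CPM in HxD, 2.37, 0.787 and 0.484 in KO, 5.45, 1.46 and 2.48 in V and 0 in all 3 WT libraries. It had counts in 8 of 9 mutant libraries, with at most 97 counts in a library. Its mean was at least 5.74-fold higher in HxD, 10.01-fold in KO and 25.8-fold in V, against a floor of 3 counts in each WT library. The bound was 2.75-fold in HxD without HxD3, 5.25-fold in KO without KO1 and 16.3-fold in V without V1. edgeR gave adjusted p values of 0.579 in HxD, 0.203 in KO and 0.245 in V. Like Slc22a3 it passed the filter only through mutant libraries, and no call or share is read from it. As a description, of the tested genes, which are subject to the same filter, 577 or 3.57% were at 0 in all WT libraries. Of all tested genes, 78 or 0.482% were also counted in at least 7 of 9 mutant libraries, and 18 or 0.111% in at least 8. The cutoffs of 7 and 8 are those of Slc22a3 and Mirg themselves and were chosen after their values were seen. These shares therefore do not measure how unusual the 2 genes are. Each WT library held a larger share of scarce genes at 0 than 5 of the 9 mutant libraries did. Whether that share plays a part in the Mirg and Slc22a3 values was not tested.

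**Figure D4:**
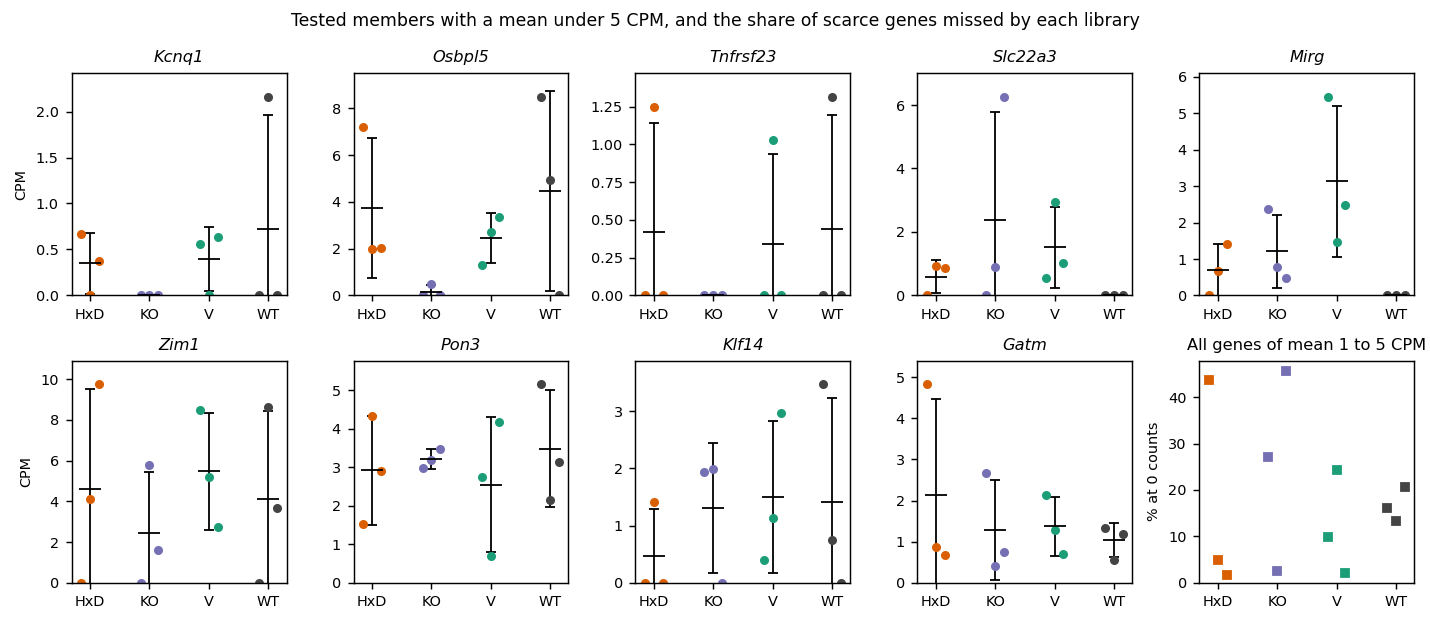
Level in CPM, on linear axes from 0, of the 9 tested genes with a mean under 5 CPM, with the group mean and ± SD (n = 3, whiskers cut at 0), and in the last panel the percentage of the 2936 genes of mean 1 to 5 CPM at 0 in each library. Mirg and Slc22a3 are at 0 in every WT library, and the last panel ranges from 1.77% in HxD3 to 45.7% in KO3.

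Grb10, an adaptor that dampens insulin and growth-factor receptor signalling, is read from the maternal copy in most tissues and from the paternal copy in neurons. Its levels were 10.6, 24.6 and 23.4 CPM in HxD, 19.5, 27.6 and 59.6 in KO, 23.5, 45.4 and 40.3 in V, against 21.8, 20.3 and 28.1 in WT. KO3 was the highest library, and all groups overlapped WT. Means were 19.5 ± 7.77 CPM in HxD, 35.6 ± 21.2 in KO, 36.4 ± 11.4 in V, against 23.4 ± 4.16 in WT. The log2 fold change was -0.26 ± 0.39 in HxD (adjusted p = 0.999), 0.60 ± 0.39 in KO (adjusted p = 0.513) and 0.64 ± 0.39 in V (adjusted p = 0.625). Without KO3 the KO value was 0.0081, and without HxD1 the HxD value was 0.04. Neither HxD against KO (-0.87 ± 0.39) nor V against HxD (0.90 ± 0.39) passed, with adjusted p = 1.0 for both.

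Gnas encodes the stimulatory G protein alpha subunit and has several promoters of differing imprinting, which a gene-level count adds together. Its levels were 112.0, 159.4 and 154.7 CPM in HxD, 163.2, 117.5 and 158.3 in KO, 129.1, 143.9 and 140.4 in V, against 177.6, 168.0 and 144.1 in WT. The V libraries lay just below the WT libraries. Means were 142.0 ± 26.1 CPM in HxD, 146.3 ± 25.1 in KO, 137.8 ± 7.73 in V, against 163.2 ± 17.3 in WT, and the log2 fold changes were -0.20 ± 0.19 in HxD (adjusted p = 0.956), -0.16 ± 0.19 in KO (adjusted p = 0.784) and -0.24 ± 0.19 in V (adjusted p = 0.747). For V the 95% interval ran from -0.63 to 0.14.

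In the Snrpn/Ube3a domain, Ube3a, a ubiquitin ligase imprinted mainly in neurons, was at 202.8, 128.6 and 125.4 CPM in HxD, 149.2, 150.9 and 144.1 in KO, 153.2, 141.9 and 152.9 in V, against 162.5, 143.3 and 155.6 in WT. The groups overlapped, and the log2 fold changes of -0.01 ± 0.19, -0.05 ± 0.19 and -0.04 ± 0.19 in HxD, KO and V were close to 0. Atp10a, a phospholipid flippase, was at 143.2, 133.6 and 128.2 CPM in HxD, 130.4, 191.4 and 138.4 in KO, 139.2, 111.0 and 105.7 in V, against 95.1, 113.2 and 112.8 in WT. All HxD and KO libraries were above all WT libraries. The log2 fold change was 0.33 ± 0.19 in HxD (adjusted p = 0.736), 0.52 ± 0.19 in KO (adjusted p = 0.202) and 0.15 ± 0.19 in V (adjusted p = 0.929), and none passed.

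The Peg10 domain on proximal chromosome 6 holds 6 of the genes, of which Calcr and Tfpi2 were not detected. Asb4, an adaptor of a ubiquitin ligase, was at 11.1, 16.5 and 10.7 CPM in HxD, 25.2, 25.5 and 16.3 in KO, 29.5, 17.7 and 20.6 in V, against 15.5, 14.6 and 13.7 in WT. KO and V libraries were all above WT and HxD libraries were not. The log2 fold change was -0.20 ± 0.39 in HxD (adjusted p = 0.999), 0.61 ± 0.39 in KO (adjusted p = 0.509) and 0.63 ± 0.39 in V (adjusted p = 0.639). V against HxD differed by 0.82 ± 0.39 and HxD against KO by -0.81 ± 0.39, with adjusted p = 1.0 for both.

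Pon2, a lactonase of the paraoxonase family, was at 3.28, 7.67 and 10.4 CPM in HxD, 10.4, 3.98 and 0.792 in KO, 6.63, 5.78 and 8.29 in V, against 3.33, 3.56 and 2.99 in WT. The V libraries were all above WT, and the KO libraries spread on both sides of it. Its log2 fold change was 1.11 ± 0.93 in HxD (adjusted p = 0.922), 0.62 ± 0.92 in KO (adjusted p = 0.843) and 1.07 ± 0.93 in V (adjusted p = 0.813). Without KO1 the KO value changed sign, to -0.47. Pon3, another paraoxonase, was at 1.52, 4.33 and 2.91 CPM in HxD, 2.98, 3.19 and 3.48 in KO, 2.75, 0.697 and 4.18 in V, against 5.15, 2.16 and 3.15 in WT. Ppp1r9a, the actin-binding protein neurabin, was at 58.9, 26.5 and 24.9 CPM in HxD, 23.0, 38.0 and 31.7 in KO, 31.3, 34.9 and 21.8 in V, against 23.1, 26.6 and 25.2 in WT. The groups of both genes overlapped.

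The remaining domains gave no call. Zim1, a zinc-finger gene beside Peg3, was at 0, 4.13 and 9.74 CPM in HxD, 0, 5.80 and 1.58 in KO, 8.48, 5.18 and 2.73 in V, against 0, 8.63 and 3.66 in WT, with 1 library at 0 in each of HxD, KO and WT. Copg2, a subunit of the COPI vesicle coat in the Mest domain, was at 240.1, 196.7 and 168.4 CPM in HxD, 199.7, 212.9 and 179.9 in KO, 174.5, 216.0 and 191.2 in V, against 196.5, 181.2 and 222.6 in WT, and its log2 fold changes lay between -0.05 and 0.01. The Copg2 exons overlap those of the paternally expressed Mest on the opposite strand over 23.0% of their length. Mest averaged 6.08 ± 1.30 CPM in HxD, 11.6 ± 4.44 in KO, 7.76 ± 4.18 in V, against 5.68 ± 2.93 in WT. Klf14, a transcription factor of the same domain, was at 0, 1.42 and 0 CPM in HxD, 1.95, 1.99 and 0 in KO, 0.393, 1.13 and 2.98 in V, against 3.47, 0.750 and 0 in WT.

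H13, the signal peptide peptidase, was at 24.1, 19.1 and 30.0 CPM in HxD, 23.5, 19.6 and 32.4 in KO, 25.4, 18.1 and 24.0 in V, against 18.1, 20.4 and 29.2 in WT, and its groups overlapped. Gatm, the first enzyme of creatine synthesis, was at 4.83, 0.875 and 0.672 CPM in HxD, 2.67, 0.414 and 0.748 in KO, 2.13, 1.30 and 0.708 in V, against 1.34, 0.563 and 1.19 in WT. HxD1 was the highest Gatm library, and the groups overlapped.

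Counts of genes whose libraries did not overlap WT were also set against the background. In HxD 1 of the 29 genes lay wholly above WT (Atp10a) and 3 wholly below (Cdkn1c, Ascl2 and Rian), beside 6.43% and 5.77% of all tested genes. In KO 4 lay above (Phlda2, Mirg, Atp10a and Asb4) and 3 below (Cdkn1c, Slc22a18 and Meg3), beside 8.17% and 8.36%. In V 5 lay above (Phlda2, Slc22a3, Mirg, Asb4 and Pon2) and 2 below (Cd81 and Gnas), beside 8.7% and 7.48%. HxD had 1 gene wholly above KO and 2 below (4.92% and 3.72% of all), V had 4 above KO and 1 below (6.19% and 4.92%), and V had 2 above HxD and 0 below (4.53% and 4.57%). Mirg and Slc22a3, at 0 in all WT libraries, passed the filter only through mutant libraries, so their places above WT were favoured in advance. Mirg is in the KO count and both are in the V count, and no share is read from them. The counts are a description of 29 genes and were not tested.

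Per kilobase of annotated exon, Phlda2 had the highest WT level of the group, at 300.04 ± 66.4 CPM per kb (SD, n = 3). Nap1l4 followed at 142.7, H19 at 106.9, Cdkn1c at 58.9, Copg2 at 50.5 and Igf2r at 43.3 CPM per kb. Igf2r, with a long transcript, ranked lower on this scale than by CPM. The exon lengths are those of GENCODE M21, which may not be the annotation behind the counts, so these levels are approximate.

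The paternally expressed partners were read for comparison. Of 32 such genes listed, 30 were in the table and 27 were tested. Of these 1 was called, in KO, beside 1.22% of all tested genes: Plagl1, a zinc-finger transcription factor outside the 13 domains. Plagl1 was at 243.7, 184.4 and 232.4 CPM in HxD, 279.5, 299.8 and 319.1 in KO, 190.3, 240.6 and 202.3 in V, against 58.3, 158.7 and 140.5 in WT, and it rose in KO by 1.33 ± 0.24 on the log2 scale (edgeR adjusted p = 0.00455). DESeq2 and limma-voom called the same gene of this list in KO, beside 3% and 1.16% of all genes, and 0 in HxD and V. Without HxD1, KO1 and KO3 the Plagl1 value was 1.33 and did not pass (adjusted p = 0.112). The median log2 fold change of the 27 genes was 0.11 in HxD, 0.41 in KO and 0.16 in V. In the Kcnq1 domain, Kcnq1ot1 was at 24.4, 24.1 and 41.4 CPM in HxD, 22.6, 35.7 and 37.6 in KO, 17.2, 30.6 and 38.7 in V, against 62.0, 61.1 and 40.7 in WT. Its KO and V libraries lay below WT, with log2 fold changes of -0.86 ± 0.32 in HxD (adjusted p = 0.551), -0.77 ± 0.32 in KO (adjusted p = 0.284) and -0.92 ± 0.32 in V (adjusted p = 0.292), none of which passed.

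Dlk1, the protein-coding partner of Meg3, was at 6.80, 7.50 and 7.01 CPM in HxD, 2.10, 1.53 and 6.25 in KO, 1.97, 3.22 and 4.92 in V, against 6.08, 7.60 and 5.58 in WT, and Peg3, the partner of Zim1, at 513.7, 344.6 and 309.2 CPM in HxD, 368.6, 586.7 and 292.9 in KO, 431.7, 420.9 and 324.5 in V, against 198.4, 341.4 and 510.2 in WT. Neither was called in any comparison with WT. In the Snrpn/Ube3a domain, Snrpn was counted in 1 of 12 libraries, and Snurf was at 0 in all. Their absence from the cells was not shown. Of 10 factors that maintain imprints, such as Trim28, Zfp57 and Ctcf, none was called by edgeR in any comparison with WT. An unadjusted p under 0.05 was reached by 1, 3 and 3 in HxD, KO and V, beside 7.25%, 13.2% and 9.69% of all tested genes. Of these 1, 1 and 2 were higher and 0, 2 and 1 lower than in WT. Of these factors DESeq2 called Ctcf in KO, beside 3% of all genes, and limma-voom called 0. Ctcf, which binds the H19 control region, was at 107.5, 113.1 and 129.99 CPM in HxD, 117.6, 161.2 and 120.4 in KO, 126.9, 112.9 and 116.6 in V, against 71.7, 93.0 and 90.3 in WT. All mutant libraries were above all WT libraries for Ctcf, and the log2 fold change in KO was 0.65 ± 0.19 (adjusted p = 0.0858).

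**Figure D5:**
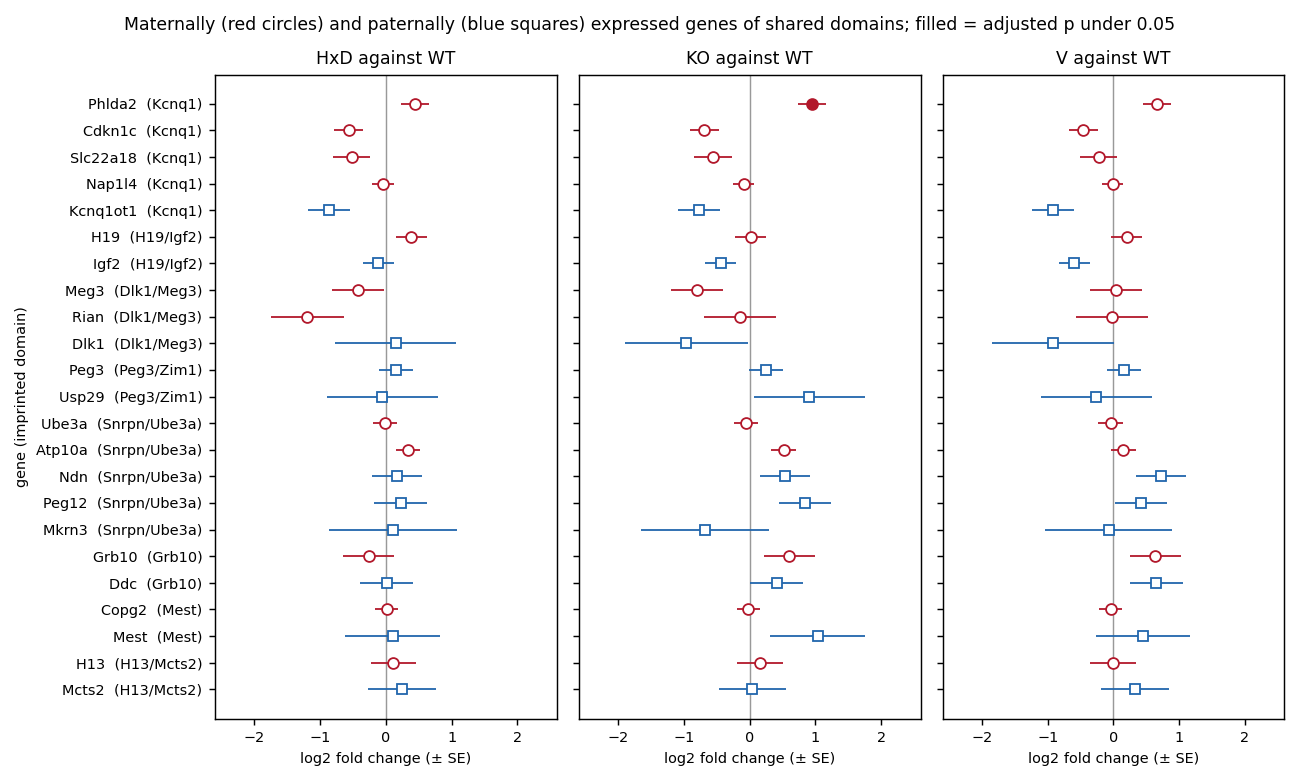
Log2 fold change ± SE against WT of maternally expressed (red circles) and paternally expressed (blue squares) genes of shared domains, in HxD, KO and V. Phlda2 in KO is the filled point, the 1 with an adjusted p under 0.05, and Kcnq1ot1 of the same domain lies at -0.86, -0.77 and -0.92, not called.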

How the data were processed

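RNA of 12 libraries of sorted mouse primordial germ cells was analysed from 1 table of whole-number counts per gene, which the authors deposited without normalization. The submitters' processing notes name featureCounts 2.0.3, STAR 2.7.10b, Trim Galore 0.6.7, FastQC and SAMtools 1.9, and the builds GRCm39 and mm10 without a role. Neither an annotation nor a strand setting is given in the sources used here, so it is unknown whether reads of overlapping genes on opposite strands were counted apart.

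The counts were tested with edgeR 4.0.16 (R 4.3.3, TMM normalization, filterByExpr, quasi-likelihood F test, two-sided) with the 12 libraries fitted together on group alone. The 16166 genes kept were adjusted by Benjamini-Hochberg and called at an adjusted p under 0.05. The standard error is the log2 fold change divided by the square root of F. DESeq2 1.42.0, limma-voom (limma 3.58.1), DESeq2 size factors, other filters, fits of 2 groups, a replicate block and left-out libraries were alternatives. The scripts were checked on simulated counts. Replicates differed by a chi-square of at least 31.8 per degree of freedom, so none was a copy of another.

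The genes and lists were chosen with earlier results of these data known. Each of the 34 genes is accounted for by domain. Full statistics are given for called genes, for the 8 of at least 5 CPM with the largest change from WT (Ascl2, Rian, Pon2, Phlda2, Meg3, Cdkn1c, Grb10 and Asb4), and for Igf2r, H19 and Gnas. The statistics of other genes, such as Atp10a, Mirg and Slc22a3, were added after their values were seen. Promoter windows came from a RefSeq table on GRCm38.p6, in which 28 of the 34 genes matched by symbol. Reads carry no molecular identifiers, so floors of 3 counts cover counting error only.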

Additional observations from a re-analysis of the deposited data

How the results depend on the processing

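Of 3426 single-gene values under alternatives, 3305 stayed called, or stayed uncalled and moved by less than the SE of the reported log2 fold change. That SE was 3.09 for Kcnq1 in HxD against WT, so the rule is loose for scarce genes. A further 112 values moved by more, 4 lost and 5 gained a call. Over all 3426 values, 220 changed sign, none of them called. The number of all genes called in HxD against WT (5) was 71 with no filter, 1 with a mean of at least 5 CPM, 64 with DESeq2, 15 with limma-voom, 20 with only the 2 groups and 22 with the replicate block. In KO against WT (197) it was 464 with no filter, 485 with DESeq2 and 30 without HxD1, KO1 and KO3. In V against WT (25) it was 176 with no filter, 5 with a mean of at least 5 CPM, 152 with DESeq2, 73 with the replicate block and 16 without those 3 libraries. In HxD against KO (0) it was 1 with DESeq2 size factors, 10 with no filter, 25 with DESeq2, 1 with only 2 groups and 2 with the block. In V against KO (0) it was 5, 20, 1 and 1 with no filter, DESeq2, only 2 groups and the block, and in V against HxD (0) it was 1 with no filter and 15 with DESeq2. Of the 29 maternally expressed genes, KO against WT gave 2 calls with no filter, 3 with DESeq2 and 0 without those 3 libraries, and V against WT gave 1 with no filter and 1 with DESeq2. The cause was not tested. Leaving out 1 library at a time gave 1 to 35 genes called in HxD, 31 to 357 in KO and 2 to 110 in V against WT, 0 to 3 in HxD against KO, 0 to 3 in V against KO and 0 to 1 in V against HxD. Among the 29 genes it gave 0 to 1 in KO against WT, with 0 without KO3, WT1 or WT2, and 0 in the other comparisons.

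The replicate numbers did not pair the libraries: 0 of 18 same-numbered pairs had a correlation over 0.1, and 2 of 12 libraries correlated best with their own number. The replicate block changed no call among the 29 genes. Phlda2 in V against WT passed with no filter (0.67, edgeR adjusted p = 0.0494). Of the 9 tested genes below 5 CPM, between 1 and 6 were at 0 in a library.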
